A study of Mus musculus with 2 samples.

Results

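Genes for the enzymes that place and remove methyl groups on histone lysines, and for the shared subunits of their complexes, were followed in mouse embryonic stem (ES) cells. The set was a list of 43 gene names, chosen with earlier results of these data known. Names were matched by gene identifier or by an older symbol of the same identifier. Of the 43, 42 were found among the 13620 genes of the deposited table. Expression of Kdm4d was not analysed here. RNA selected for poly(A) tails had been sequenced from wild-type (WT) ES cells and from ES cells of genotype Fbxl10 T/T, with 1 library each and both of strain C57BL/6J. Both cultures were kept in serum with leukemia inhibitory factor on inactivated embryonic fibroblast feeders, which were depleted by plating before use. Fbxl10 is an older symbol of Kdm2b, itself a lysine demethylase gene. The labels do not say what the T allele alters, how many clones or cultures a library represents, or at what passage the cells were taken. The series deals with whether FBXL10 keeps Polycomb target genes free of DNA methylation, and the RNA libraries are its expression data. With 1 library per genotype no difference between genotypes could be tested, so "higher" and "lower" describe the Fbxl10 T/T library against the WT library.

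Histone lysine methylation is written by SET-domain enzymes and by DOT1L, and it is removed by the KDM1 amine oxidases and by the Jumonji-domain dioxygenases. Methylation of H3K4 (a lysine of histone H3, named by its position) marks active promoters and enhancers, and methylation of H3K9 marks heterochromatin and silenced repeats. Methylation of H3K36 and H3K79 is found over transcribed genes, methylation of H4K20 acts in heterochromatin and genome maintenance, and H3K27 methylation is the Polycomb mark. Most of these enzymes belong to families of paralogues that share a substrate, and in ES cells several of them, among them SETDB1, KDM1A and the KDM5 and KDM3 families, are known for roles in self-renewal or in leaving the stem cell state.

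The table held 21198574 reads of WT and 27109446 of Fbxl10 T/T. Levels are normalised CPM, read counts scaled by the authors to an effective library size, and 3 reads corresponded to 0.126 and 0.122 CPM. The levels do not sum to the same total in both libraries. Over all genes at 1 CPM or more the ratio of summed levels, Fbxl10 T/T over WT, was 1.24. The ratios of sums below stand beside that value. Kdm2b itself was at 103 CPM in WT, from 2449 reads, and at 10.6 CPM in Fbxl10 T/T, from 262 reads, 9.66-fold lower with an exact 95% counting interval of 8.50 to 11. The cell type markers differed widely between the libraries. All 10 ES cell markers were below their WT level, 7 of them at least 2-fold, and their summed level was 6883 CPM in WT and 1878 CPM in Fbxl10 T/T. All 12 extraembryonic endoderm markers were at least 2-fold higher, with sums of 6872 and 64398 CPM. Of 11 measured fibroblast markers, which feeder cells would carry, 8 were below WT (median log2 ratio -0.43). Only 1 of them (Fn1, also made by endoderm) was at least 2-fold lower, at 1418 and 437 CPM. The sums were 2099 and 1061 CPM for all 11. Without Fn1 they were 681 and 624 CPM, and 7 of those 10 markers were below WT. No measured marker of these lists was at 0 in either library. The part of these cell types in the values below was not tested, and in bulk RNA fewer cells of a type and less RNA per cell cannot be told apart.

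The share of histone lysine methylation genes past 2-fold lay below that of all genes, and no result is read from that. On the log2(CPM + 0.5) scale, which slightly understates the ratios of low genes, 5 of the 42 genes (11.9%) lay 2-fold or more above WT and 6 (14.3%) 2-fold or more below it, 26.2% together. Among all 13512 genes that reached 1 CPM in either library, 14.8% were that much higher and 20.6% that much lower, 35.3% together. All 42 reached 5 CPM in one library or the other, and among the 10986 genes that did so the shares were 16.6%, 15.8% and 32.5%. By an exact binomial test of the reads of the 2 libraries, which compares these libraries and not the genotypes, 18 of the 42 were higher and 23 lower, and Kdm6a was neither. That test called 42.4% of all genes higher and 40.9% lower, 83.3% together. The median log2 ratio of the 42 was -0.24, against 0.02 over all genes at 1 CPM or more and 0.12 over those at 5 CPM or more. The direction of the calls depended on the scaling of the libraries: setting both libraries to one median or to one upper quartile shifted the ratios down by 0.13 or 0.24 on the log2 scale, and the split of 5 higher and 6 lower became 3 and 8, or 2 and 8. All genes shifted likewise, to 12.3% higher and 22.4% lower with one median, and 10.7% and 24.1% with one upper quartile. Kdm5a and Smyd2 no longer reached 2-fold higher under either rescaling, nor did Ash1l under the upper quartile. Kdm1a and Kdm4a reached 2-fold lower under both.

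**Figure D1:**
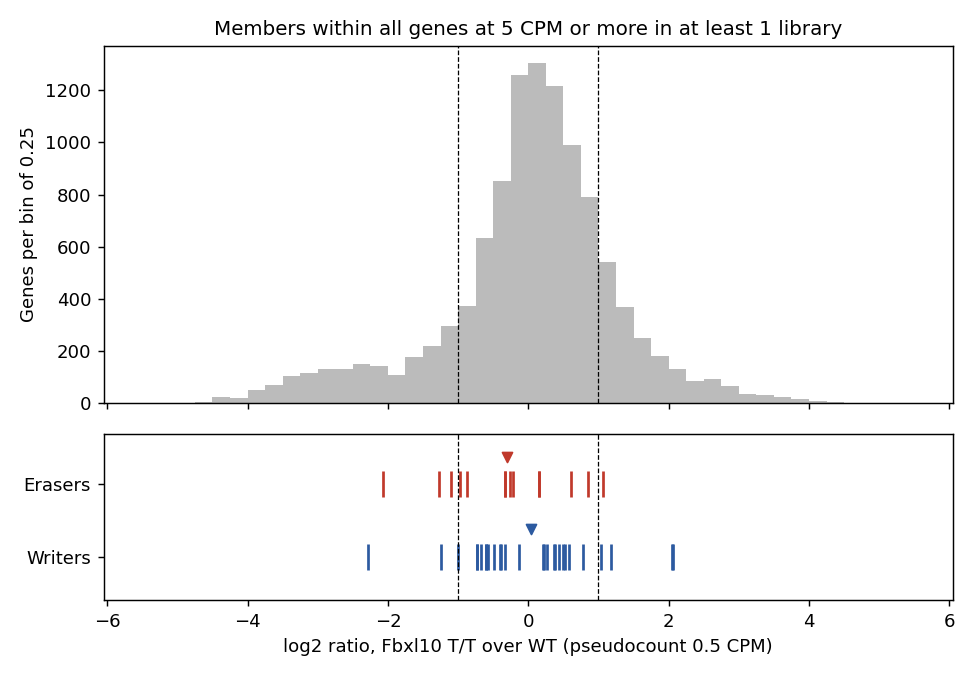
Number of genes per bin of 0.25 in the log2 ratio of Fbxl10 T/T over WT, for all genes that reached 5 CPM in either library (upper panel), and the ratios of the 28 writer and 14 eraser genes as vertical ticks with their medians as triangles (lower panel). Dashed lines mark 2-fold; 31 of the 42 genes lie between them.

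Of the writer genes 14 lay above and 14 below their WT levels, and of the eraser genes 5 lay above and 9 below (64.3%). Of all genes at 1 CPM or more 49.1% lay below WT, and of those at 5 CPM or more 44.2%. With one upper quartile for both libraries 16 writer and 11 eraser genes lay below WT, as did 59.2% of all genes. Of the 28 writer genes, which include complex subunits, 4 were at least 2-fold higher and 3 at least 2-fold lower (median log2 ratio 0.03, which turned to -0.10 and -0.20 under the 2 rescalings). Of the 14 eraser genes 1 was higher and 3 lower (median -0.30). At a 4-fold threshold 4 of the 42 remained, Suv39h1 and Whsc1 higher and Kdm5b and Nsd1 lower, while 12.9% of all genes at 1 CPM or more were past 4-fold in either direction. Just outside the 2-fold threshold lay Kdm4a (log2 ratio -0.97), Kdm1a (-0.87) and Kdm4b (0.85), and just inside it lay Wdr5 (2.00-fold lower), Smyd2 (1.03) and Kdm5a (1.07).

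**Figure D2:**
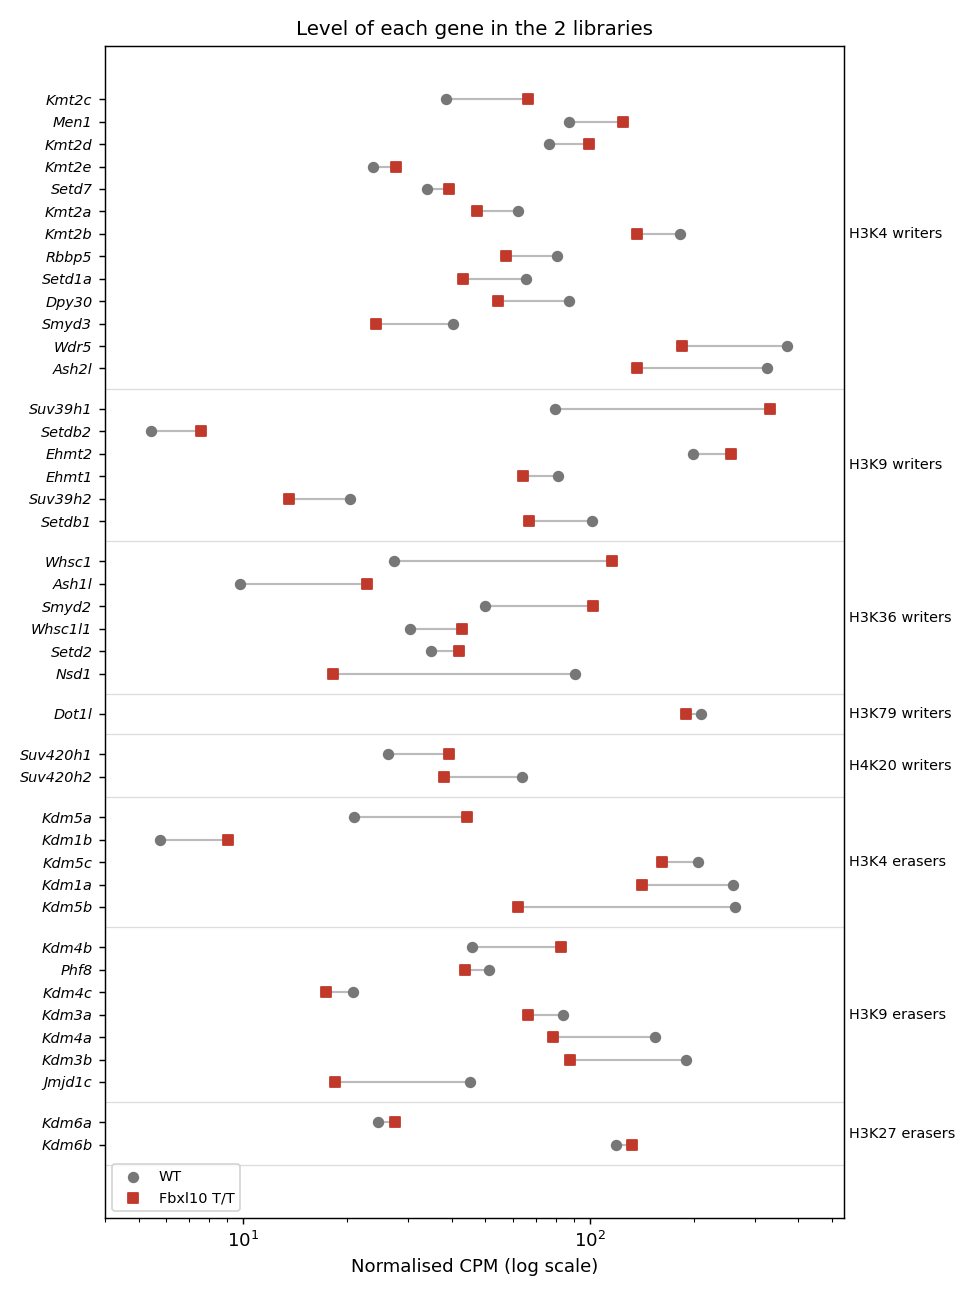
Normalised CPM on a log axis for each of the 42 genes, grouped by the mark written or removed; grey circles are the WT library and red squares the Fbxl10 T/T library. The longest lines are those of Nsd1 (90.6 to 18.2 CPM), Whsc1 (27.3 to 116 CPM), Kdm5b (262 to 62.1 CPM) and Suv39h1 (79.3 to 330.4 CPM).

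Of the 13 H3K4 writer genes 2 (15.4%) were at least 2-fold lower and none higher. Of all genes at 1 CPM or more 20.6% were lower and 14.8% higher, and of those at 5 CPM or more 15.8% and 16.6%. Below WT lay 8 of the 13 (61.5%), beside 49.1% of all genes at 1 CPM or more and 44.2% at 5 CPM or more. Among them, the 4 shared subunits were below WT, 2 of them at least 2-fold. Of the 6 large catalytic subunits with Setd1b counted in, 1 was at least 2-fold lower. The catalytic SET proteins of the COMPASS-type complexes (KMT2A to KMT2D, SETD1A, SETD1B) all bind a module of WDR5, ASH2L, RBBP5 and DPY30. Wdr5, the gene for the scaffold protein of that module, was at 370.4 CPM in WT and 185 CPM in Fbxl10 T/T, 2.00-fold lower with a 95% counting interval of 1.93 to 2.08. Ash2l, whose product stimulates the SET domain together with RBBP5, was at 325 and 137 CPM, 2.37-fold lower (interval 2.27 to 2.47). Rbbp5 (80.4 and 57.2 CPM) and Dpy30 (87.2 and 54.5 CPM) were lower by less than 2-fold. All 4 genes of the module were thus below WT, with summed levels of 863 and 434 CPM (ratio 0.503), and both rescalings place them lower still.

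Of the catalytic genes, Kmt2a to Kmt2d and Setd1a were within 2-fold, with a summed level of 425 CPM in WT and 393 CPM in Fbxl10 T/T (ratio 0.925). Setd1b, the paralogue of Setd1a, is not one of the 43 genes and was named after its value was seen. It was at 67.1 and 29.0 CPM, 2.31-fold lower (interval 2.11 to 2.53), and it lies on chromosome 5 with a gap of 163 kb to Kdm2b in mm9. With Setd1b the sums were 492 and 422 CPM (ratio 0.858). Kmt2a and Kmt2b, whose products have a CXXC domain for unmethylated CpG, were at 62.3 and 47.4 CPM and at 182 and 137 CPM. Their read ratio to each other was the same within counting error (change 1.01, interval 0.925 to 1.10). Kmt2c and Kmt2d, which encode enhancer H3K4 monomethyltransferases, were above WT at 38.4 and 66.1 CPM and at 76.5 and 99.4 CPM. Setd1a went from 65.7 to 43 CPM. Men1, which encodes menin of the KMT2A and KMT2B complexes, was at 87.0 and 125 CPM, and Kmt2e, a family member without known histone activity, at 23.7 and 27.6 CPM. Outside these complexes, Setd7, a monomethyltransferase gene, was at 34.0 and 39.4 CPM, and Smyd3, whose product also methylates cytosolic proteins, at 40.4 and 24.1 CPM. Kmt2e and Setd7 turned to slightly below WT after upper quartile rescaling.

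Of the H3K9 writers, Suv39h1 alone reached 2-fold. Its product trimethylates H3K9 at pericentromeric heterochromatin, a task shared with the product of Suv39h2. Suv39h1 (ENSMUSG00000039231; chromosome X, 7638561 to 7651693 in mm9) was at 79.3 CPM in WT, from 1893 reads, and at 330.4 CPM in Fbxl10 T/T, from 8156 reads. This was 4.17-fold higher, with a counting interval of 3.96 to 4.38. Suv39h2 was at 20.4 and 13.5 CPM, so the read ratio of the 2 paralogues moved 6.27-fold in favour of Suv39h1 (interval 5.41 to 7.27), a value that does not depend on how the libraries are scaled. Of the reads in the 2 genes, 79.6% (exact 95% interval 77.9 to 81.2%) were from Suv39h1 in WT and 96.1% (95.6 to 96.5%) in Fbxl10 T/T. Per kilobase of transcript, Suv39h1 ranked 14 of the 42 genes in WT (25.4 CPM per kb) and 1 in Fbxl10 T/T (106 CPM per kb).

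The other 5 H3K9 writer genes were within 2-fold. Setdb1, whose product silences endogenous retroviruses and germline genes with TRIM28, was at 101 and 67.0 CPM, and Setdb2 was at 5.44 and 7.57 CPM. Ehmt1 and Ehmt2 encode the subunits GLP and G9a of the H3K9 mono- and dimethyltransferase, and they were at 80.9 and 64.4 CPM and at 199 and 256 CPM. The 6 genes together summed to 486 CPM in WT and 739 CPM in Fbxl10 T/T, while the sum without Suv39h1, taken after its value was seen, was 407 and 409 CPM.

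Promoter windows of Suv39h1, Suv39h2 and Kdm5b are shown because the SUV39H paralogues lay on opposite sides of WT and Kdm5b had the lowest ratio of the erasers. A further reason is that KDM2B, KMT2A and KMT2B bind unmethylated CpG through CXXC domains. Each window holds 300 bases, most of them before a RefSeq transcript start (build GRCm38.p6), 5′ to 3′ on the gene's strand, with every CG dinucleotide in capitals. The windows of Suv39h1 and Suv39h2 are on the minus strand and that of Kdm5b is on the plus strand.
Suv39h1, first start, chrX:8074711-8075010: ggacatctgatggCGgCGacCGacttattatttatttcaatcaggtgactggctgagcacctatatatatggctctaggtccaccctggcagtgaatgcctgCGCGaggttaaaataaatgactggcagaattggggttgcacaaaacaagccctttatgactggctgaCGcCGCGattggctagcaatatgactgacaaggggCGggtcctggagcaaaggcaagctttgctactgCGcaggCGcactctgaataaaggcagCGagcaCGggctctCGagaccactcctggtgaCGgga
Suv39h1, second start, chrX:8074312-8074611: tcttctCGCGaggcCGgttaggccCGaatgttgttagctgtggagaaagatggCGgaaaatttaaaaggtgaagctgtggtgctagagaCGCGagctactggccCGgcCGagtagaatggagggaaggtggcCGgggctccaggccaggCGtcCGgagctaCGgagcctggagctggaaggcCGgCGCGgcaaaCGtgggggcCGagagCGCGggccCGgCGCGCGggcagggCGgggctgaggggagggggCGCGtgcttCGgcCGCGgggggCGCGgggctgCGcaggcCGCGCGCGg
Suv39h2, chr2:3474937-3475236: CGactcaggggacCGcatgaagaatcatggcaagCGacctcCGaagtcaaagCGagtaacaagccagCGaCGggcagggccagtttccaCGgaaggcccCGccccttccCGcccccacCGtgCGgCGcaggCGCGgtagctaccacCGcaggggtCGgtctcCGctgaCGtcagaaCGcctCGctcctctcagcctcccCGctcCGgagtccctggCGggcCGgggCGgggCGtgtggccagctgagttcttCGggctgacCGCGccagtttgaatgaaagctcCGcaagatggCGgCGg
Kdm5b, chr1:134559928-134560227: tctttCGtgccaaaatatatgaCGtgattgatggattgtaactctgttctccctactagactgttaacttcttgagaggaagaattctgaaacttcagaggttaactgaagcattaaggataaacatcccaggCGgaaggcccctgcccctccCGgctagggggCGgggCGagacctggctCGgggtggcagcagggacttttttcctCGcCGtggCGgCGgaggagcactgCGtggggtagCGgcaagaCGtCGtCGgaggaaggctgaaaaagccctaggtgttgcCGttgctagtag
The Suv39h1 windows held 15 and 37 CG, the Suv39h2 window 33 and the Kdm5b window 17. Of 32851 windows of the same length over all genes, 34.6% held at least 15 CG, 31.4% at least 17, 8.56% at least 33 and 5.58% at least 37. RefSeq windows matched 31 of the 43 genes, with 43 windows and a median of 26 CG against 7 over all windows. CG-rich windows stood at genes that were higher (Smyd2, 43 CG), lower (Jmjd1c, 47 CG in one window) and little different (Dot1l, 49 CG). CG reads as CG on both strands, and the counts say nothing of methylation or binding in these cells.

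Among the 6 H3K36 writer genes, 5 lay above WT and only Nsd1 lay below it. Past 2-fold were 3 of those above and Nsd1, while Whsc1l1 and Setd2 were within 2-fold. Whsc1 and the H3K9 writer Suv39h1 had the highest ratios of the set, with overlapping counting intervals and an order that turned at a pseudocount of 1 CPM. Nsd1, for a dimethyltransferase that marks intergenic and genic H3K36, was the lowest of the 42 genes by ratio. Nsd1 (ENSMUSG00000021488; chromosome 13, 55311143 to 55419686 in mm9) was at 90.6 CPM in WT, from 2164 reads, and at 18.2 CPM in Fbxl10 T/T, from 449 reads. This was 4.98-fold lower, with a counting interval of 4.50 to 5.53. Whsc1, now named Nsd2, encodes a second dimethyltransferase of the family. Whsc1 (ENSMUSG00000057406; chromosome 5, 34163374 to 34240615 in mm9) went the other way, from 27.3 CPM (652 reads) to 116 CPM (2855 reads), 4.24-fold higher (interval 3.89 to 4.62). Its locus overlaps that of Nelfa by 1031 bases in mm9, and Nelfa was at 116 CPM in WT and 111 CPM in Fbxl10 T/T. Without a known strand setting, reads in such an overlap cannot be assigned, which also holds for Suv39h2 with Dclre1c (3.18 and 3.04 CPM), Kmt2e with Srpk2 (17.2 and 16.8 CPM) and Setdb1 with Cers2 (125 and 219 CPM). Whsc1l1, the third paralogue, was at 30.2 and 42.8 CPM.

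The read ratio of Whsc1 to Nsd1 therefore moved 21.1-fold (interval 18.5 to 24.1), the largest of the 21 paralogue pairs examined. Nsd1 gave 61.2% (59.5 to 62.8%) of the reads in the 3 NSD genes in WT and 10.3% (9.41 to 11.2%) in Fbxl10 T/T. Whsc1 gave 18.4% (17.2 to 19.7%) and 65.5% (64.0 to 66.9%). Per kilobase of transcript Nsd1 led the family in WT, at 7.09 against 3.82 CPM per kb for Whsc1, and Whsc1 led it in Fbxl10 T/T, at 16.2 against 1.42 CPM per kb. The summed level of the 3 genes per kilobase was 13.9 CPM per kb in WT and 21.8 CPM per kb in Fbxl10 T/T.

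Ash1l and Smyd2 were the other H3K36 writer genes past 2-fold. Ash1l, for a large dimethyltransferase that acts against Polycomb silencing, had the lowest WT level of the 42 genes per kilobase. It was at 9.80 CPM in WT and 22.7 CPM in Fbxl10 T/T, 2.32-fold higher (interval 1.99 to 2.71). Smyd2, whose product methylates H3K36 in vitro and also p53, was at 49.8 and 102 CPM, 2.05-fold higher (interval 1.91 to 2.20). Both counting intervals include 2-fold. Setd2, the gene for the H3K36 trimethylating enzyme that travels with RNA polymerase II, was at 34.8 and 41.9 CPM. In all, 3 of the 6 H3K36 writer genes were at least 2-fold higher and 1 at least 2-fold lower. Of all genes at 1 CPM or more 14.8% were higher and 20.6% lower, and of those at 5 CPM or more 16.6% and 15.8%. The higher genes numbered 2 with one median for both libraries and 1 (Whsc1) with one upper quartile, beside 12.3% and 10.7% of all genes.

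The remaining writers were close to WT or split between paralogues. Dot1l, for the only known H3K79 methyltransferase, was at 209 and 189.9 CPM. Suv420h1 and Suv420h2 encode the enzymes of H4K20 di- and trimethylation and lay on opposite sides of WT, at 26.2 and 39.3 CPM and at 63.6 and 38 CPM. Neither reached 2-fold, but their read ratio moved 2.51-fold in favour of Suv420h1 (interval 2.20 to 2.85). The share of Suv420h1 in the reads of the 2 genes was 29.2% (27.3 to 31.2%) in WT and 50.8% (48.5 to 53.1%) in Fbxl10 T/T.

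**Figure D3:**
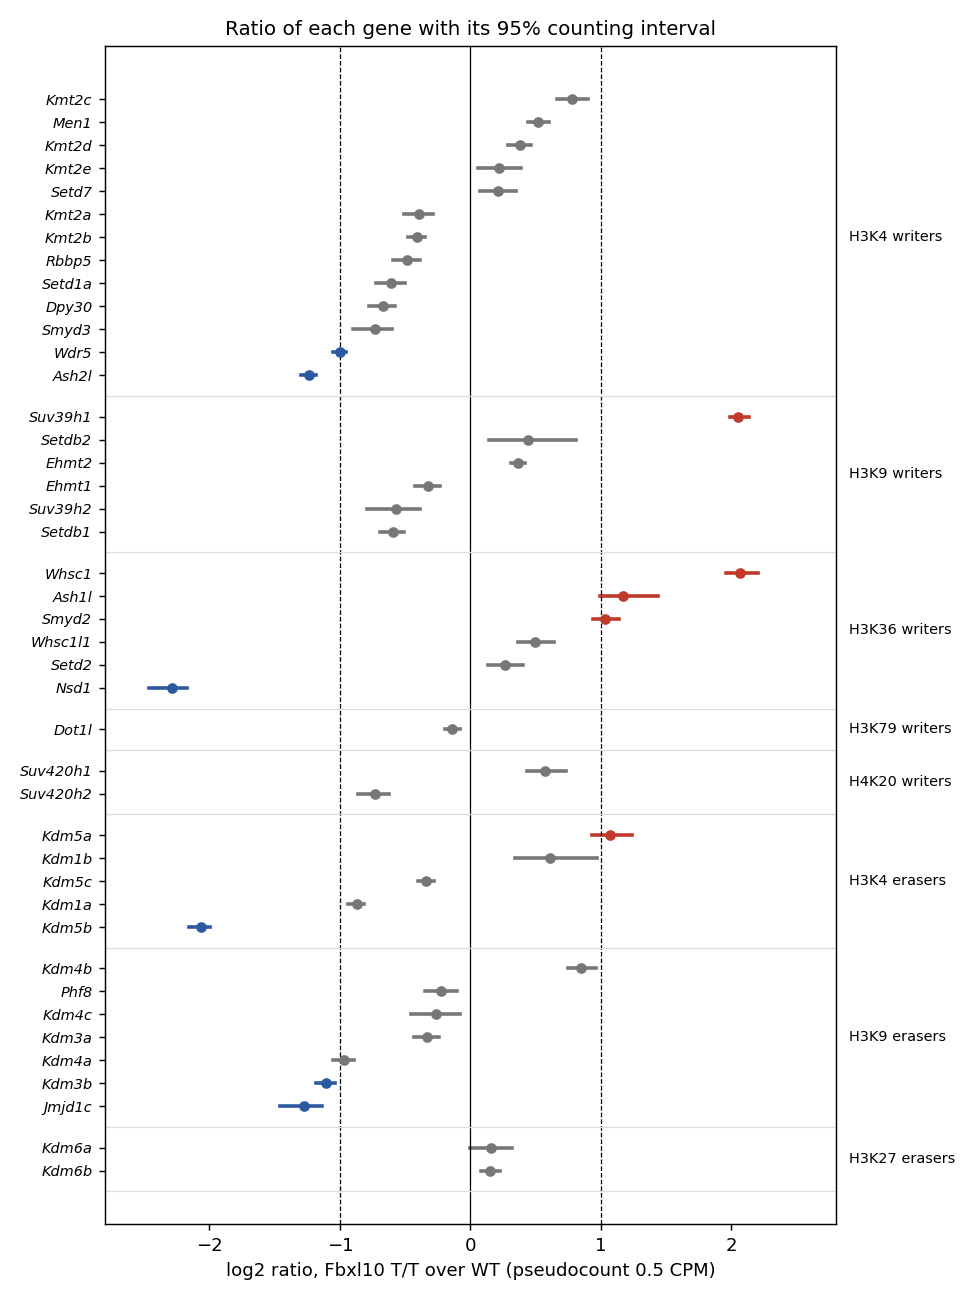
log2 ratio of Fbxl10 T/T over WT for the 42 genes (points, pseudocount 0.5 CPM), with bars for the exact 95% counting interval of the ratio without a pseudocount; red is at least 2-fold higher, blue at least 2-fold lower and dashed lines mark 2-fold. The values run from -2.29 (Nsd1) to 2.06 (Whsc1), and the bars cover counting error only.

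Of the H3K4 erasers, Kdm5b was lower and Kdm5a higher. The KDM5 proteins remove methyl groups from di- and trimethylated H3K4, and KDM5B is known in ES cells for keeping H3K4 methylation focused at promoters and enhancers. Kdm5b (ENSMUSG00000042207; chromosome 1, 136456769 to 136528196 in mm9) was at 262 CPM in WT, from 6255 reads, and at 62.1 CPM in Fbxl10 T/T, from 1533 reads, 4.22-fold lower (interval 3.99 to 4.46). Kdm5a was at 20.9 and 44.2 CPM, 2.12-fold higher, with an interval of 1.91 to 2.36 that includes 2-fold. Kdm5c, the X-linked paralogue, was at 205 and 162 CPM.

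The read ratio of Kdm5a to Kdm5b moved 8.95-fold (interval 7.94 to 10.1) and that of Kdm5c to Kdm5b 3.33-fold (3.11 to 3.58). Kdm5b gave 53.7% (52.8 to 54.6%) of the reads in the 3 genes in WT and 23.2% (22.1 to 24.2%) in Fbxl10 T/T, while Kdm5a gave 4.28% (3.92 to 4.66%) and 16.5% (15.6 to 17.4%). Per kilobase of transcript Kdm5c was the highest of the family in both libraries, at 31.7 and 25.1 CPM per kb. Kdm1a, the gene for LSD1, which demethylates mono- and dimethylated H3K4 within the CoREST complex, was at 259.6 and 142 CPM, 1.83-fold lower (interval 1.76 to 1.91). Its paralogue Kdm1b was at 5.78 and 9.07 CPM. The 5 H3K4 eraser genes summed to 753 CPM in WT and 419 CPM in Fbxl10 T/T (ratio 0.556).

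Among the H3K9 erasers, 6 of 7 measured genes were below WT, as were 49.1% of all genes at 1 CPM or more and 44.2% at 5 CPM or more. The 2 that were at least 2-fold lower (28.6%) compare with 20.6% and 15.8% of all genes at these minimums. KDM3 proteins remove mono- and dimethylation of H3K9, and KDM3A and KDM3B are known to act redundantly. Kdm3b was at 189 CPM in WT and 87.7 CPM in Fbxl10 T/T, 2.16-fold lower (interval 2.05 to 2.27). Jmjd1c, a KDM3 relative whose demethylase activity is debated, was at 45.2 and 18.4 CPM, 2.45-fold lower (interval 2.20 to 2.74). Kdm3a was at 83.9 and 66.4 CPM. The 3 genes were thus all lower, and the share of Kdm3a in their reads was 26.4% (25.4 to 27.4%) in WT and 38.5% (37.0 to 39.9%) in Fbxl10 T/T.

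KDM4 proteins act on trimethylated H3K9 and H3K36. Kdm4a was at 154 and 78.5 CPM, 1.96-fold lower (interval 1.86 to 2.07), and Kdm4c at 20.8 and 17.3 CPM. Kdm4b was the H3K9 eraser gene above WT, at 45.8 and 82.6 CPM, 1.81-fold higher (interval 1.68 to 1.94). The read ratio of Kdm4b to Kdm4a moved 3.54-fold (interval 3.23 to 3.88). Kdm4a gave 69.8% (68.5 to 71.0%) of the reads in these 3 genes in WT and 44.0% (42.5 to 45.5%) in Fbxl10 T/T, against 20.8% (19.7 to 21.9%) and 46.3% (44.8 to 47.8%) for Kdm4b. Phf8, whose product reads H3K4 trimethylation and removes H3K9 dimethylation, was at 51.2 and 43.8 CPM.

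**Figure D4:**
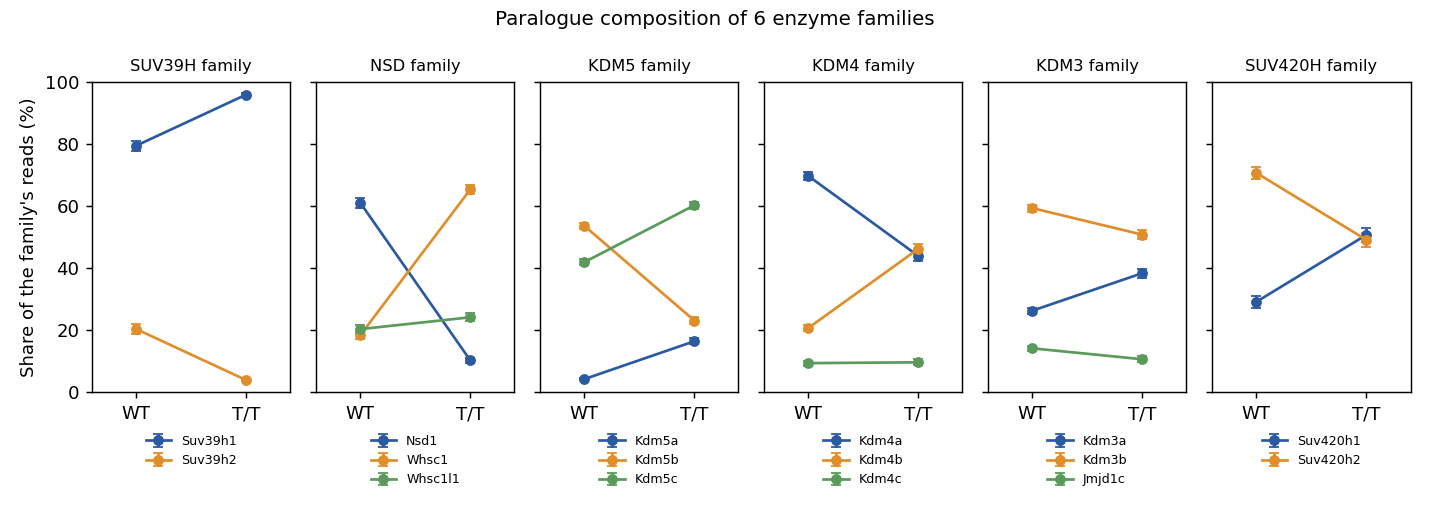
Share of the reads of 6 enzyme families that came from each paralogue, in percent, for WT (left point) and Fbxl10 T/T (right point), with exact 95% binomial intervals for counting error. Shares are not corrected for transcript length; the crossing lines of Nsd1 (61.2 to 10.3%) and Whsc1 (18.4 to 65.5%) show the largest shift.

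The H3K27 erasers were at similar levels in both libraries. Kdm6a, for the X-linked demethylase UTX of the KMT2C and KMT2D complexes, was at 24.5 and 27.4 CPM, with a ratio of 1.12 (interval 0.9991 to 1.25). Kdm6b, for JMJD3, was at 119 and 132 CPM, with a ratio of 1.11 (interval 1.06 to 1.17). The direction of both flipped after upper quartile rescaling, and the read ratio of the 2 genes was the same within counting error (change 1.004, interval 0.890 to 1.13).

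Across the 13 paralogue families, 13 of the 21 pairs changed their read ratio at least 2-fold and 12 pairs lay on opposite sides of WT, which the scaling of the libraries can alter. The KMT2A and KMT2B, KMT2C and KMT2D, EHMT, KDM3 and KDM6 families held no pair past 2-fold. The pairs were chosen as families, other gene families were not examined in the same way, and pairs that share a gene are not independent. Of single genes at 1 CPM or more, 35.3% were past 2-fold and 49.1% lay below WT. No share over pairs of other genes was taken, so the pair counts are not read as a trait of these families. The leading paralogue per kilobase of transcript changed in the NSD family and, by a small margin, in the KDM4 family, where Kdm4a was at 33.0 and 16.8 and Kdm4b at 10 and 18.1 CPM per kb. Both changes of leader were also found with the length of all merged exons in place of the longest consensus coding transcript. By that second length Kdm3a in place of Kdm3b led the KDM3 family in Fbxl10 T/T.

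Per kilobase of transcript, 3 of the 4 genes of the shared H3K4 module were the most abundant of the set in WT. Wdr5 (128 CPM per kb), Dpy30 (110.5) and Ash2l (98.3) ranked 1 to 3 of 42 in WT, and Kdm1a (85.7) ranked 4. Rbbp5 (28.1) ranked 13, and Ash2l and Kdm1a changed places with merged exon lengths. In Fbxl10 T/T the order of levels was led by Suv39h1 (106 CPM per kb), Dpy30 (69.1), Wdr5 (64.0) and Ehmt2 (63.6). With 1 library per genotype there is no replicate spread to order neighbours by, and Dpy30 and Wdr5 changed places with merged exon lengths. The lowest was Ash1l in WT (0.841 CPM per kb) and Nsd1 in Fbxl10 T/T (1.42), where merged lengths put Jmjd1c lowest.

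Other genes of the same chromatin pathways were counted by lists, beside 14.8% higher and 20.6% lower among all genes at 1 CPM or more. A further 24 lysine methyltransferase genes reached 1 CPM, many of them PRDM genes whose enzymatic activity is unproven. Of these, 2 (8.33%) were at least 2-fold higher and 8 (33.3%) at least 2-fold lower (median log2 ratio 0.03). Prdm14, a regulator of naive pluripotency and germ cells, was at 27.1 and 1.30 CPM, 20.9-fold lower (interval 14.7 to 30.8), and Prdm16 was at 6.57 and 0.486 CPM. Prdm9, the meiotic H3K4 methyltransferase gene, was at 0.544 and 6.76 CPM, from 13 reads in WT, and Prdm6 was at 1.84 and 7.78 CPM. Setd1b was another of the 8 lower genes. Of 9 further demethylase genes 1 (11.1%) was higher and 2 (22.2%) lower (median -0.04). Phf2, for a relative of PHF8, was at 27.1 and 76.3 CPM, 2.81-fold higher (interval 2.57 to 3.08). The lower genes were Kdm2b and Hr (7.29 and 2.43 CPM).

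Partner genes of the complexes were counted in the same way, beside the same 14.8% higher and 20.6% lower of all genes. None of 9 further COMPASS partner genes reached 2-fold, and their log2 ratios ran from -0.87 to 0.45 (median -0.19). Of 12 CoREST and LSD1 partner genes 4 (33.3%) were lower and none higher (median -0.16), in a small list. Gse1 was at 46.2 and 3.52 CPM, 13.1-fold lower (interval 10.5 to 16.5), and Zmym3 at 96.9 and 16.0 CPM, 6.05-fold lower (5.44 to 6.75). Rcor2, the CoREST paralogue typical of ES cells, at 201 and 47.5 CPM, and Phf21a, at 29.8 and 13.7 CPM, were the other two and were named after their values were seen. Kdm1a itself was 1.83-fold lower, but the 12 partner genes did not all go its way, with 7 below WT and 5 above. Among those above, also named after their values were seen, were Rcor1 (44.0 and 62.2 CPM) and Hmg20b (52.0 and 92.4 CPM).

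Of 14 partner genes of H3K9 methylation 3 were lower and 1 higher (median -0.08). Cbx1, for the heterochromatin protein HP1 beta, was at 242 and 77.0 CPM, 3.15-fold lower (interval 2.99 to 3.31), and Cdyl2 was at 16.3 and 4.94 CPM. Trim28, the co-repressor that brings SETDB1 to retroviral repeats, was the third, at 2752 and 964 CPM, and was named after its value was seen. Zfp644, a partner of the EHMT enzymes, was at 7.96 and 22.7 CPM. Of 11 DOT1L and H3K36 partner genes 1 was higher, Mllt3 at 2.68 and 8.10 CPM, and 1 lower, Mllt6 at 188 and 85.6 CPM (median 0.29). The lists are small, and the shares over all genes were 14.8% higher and 20.6% lower.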

How the data were processed

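Poly(A) RNA of 1 WT and 1 Fbxl10 T/T library was compared. Per the submitters' processing notes, TopHat 1.4.1, HTSeq 0.5.3p9 and edgeR were used with build mm9; what each did, the annotation and the strandedness count as not given in the sources used here. Each gene's deposited signal was a read count scaled by the authors to an effective library size; all values (100%) were whole multiples of 1 step per library within 0.01 reads, so reads were recovered. The authors' deposited log2 ratios differed by at most 0.0028 from recomputed ones over 9311 genes.

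Ratios used a pseudocount of 0.5 CPM, calls 2-fold and 1 CPM. Intervals are exact binomial (Clopper-Pearson), or exact conditional for read ratios of paralogues, at 95%, and cover counting error only, since PCR copies are not independent. An exact two-sided binomial test of the 2 libraries, adjusted by Benjamini-Hochberg over 13620 genes, called 83.3% of all genes (11344) and 18 members higher, 23 lower and 1 neither; it compares libraries, not genotypes. Lengths are the longest consensus coding transcript in GENCODE M21. Genes named by rule: all members, Kdm2b, and up to 2 genes past 2-fold at either end of each list. Outside the rule stand the genes marked as named after their values were seen, those that overlap a member, Fn1 and Wdr77. The members and lists were chosen with earlier results of these data known. Steps were tested on simulated reads. Software was scipy 1.17.1, numpy 2.4.6, matplotlib 3.10.9 and pandas 2.3.3 under Python 3.11.15.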

Additional observations from a re-analysis of the deposited data

How the results depend on the processing

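No paired analysis was possible because each genotype had a single library, and no library could be left out. With the libraries rescaled to a common median or upper quartile, 3 or 2 members lay 2-fold or more above WT; the lower genes numbered 8 in both cases. Of all genes, 12.3% or 10.7% were then 2-fold or more higher and 22.4% or 24.1% lower. At a 1.5-fold threshold 8 members were higher and 13 lower, beside 26.5% and 28.7% of all genes. At a 4-fold threshold 2 were higher and 2 lower, beside 3.84% and 9.10% of all genes. Wdr5 left the lower genes with a pseudocount of 1 CPM, which shrinks ratios by construction. The binomial test and the minimum of 0 or 5 CPM left both counts at 5 and 6. The minimums could not alter them, since all 42 members reached 5 CPM. The test could hardly do so, since it called 83.3% of all genes and left only 1 member uncalled. The medians of all members, writers and erasers stayed within their order-statistic intervals under each pseudocount, scaling and minimum. Those intervals treat the members as a random sample of genes, and the minimums could not alter the medians, so no stability is read from this. Under the median and upper quartile rescalings the median of all members went from -0.24 to -0.37 and -0.47. That of the erasers went from -0.30 to -0.43 and -0.53, and that of the writers crossed 0 under both rescalings. The counts by mark under rescaling, the sums without Fn1 or with Setd1b and the alternatives of Kdm2b were added after the data were seen; the log2 ratio of Kdm2b ran from -3.44 to -3.16. Of the log2 ratios of single members under an alternative, 184 stayed within the counting interval, 68 moved beyond it and none of a called gene reversed. All 68 moves came under the 2 rescalings, where most members moved. The minimums could not alter a ratio, so the 184 do not measure how stable the ratios are to scaling. Without replicates, variation between cultures cannot be separated from genotype.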

Other observations

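Protein arginine methyltransferases are the other large class of histone methyltransferases. Of the 9 genes listed for them 7 (77.8%) were below WT, as were 49.1% of all genes at 1 CPM or more. Wdr77, which encodes a partner of PRMT5 and not an enzyme, is among those 7. Its log2 ratio (-0.59) is the median of the list. Of the 9 genes 3 were at least 2-fold lower (33.3%, against 20.6% of all genes) and none higher (median log2 ratio -0.59). Prmt3, for an enzyme of a ribosomal protein, was at 61.8 and 26.7 CPM, 2.32-fold lower (interval 2.12 to 2.55), and Prmt8, from 57 and 7 reads, was at 2.39 and 0.284 CPM. Prmt5, for the main symmetric dimethyltransferase, was at 340.4 and 164 CPM, 2.07-fold lower with an interval of 1.99 to 2.15, and was named after its value was seen.

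Genes of methyl donor and 2-oxoglutarate metabolism, which supply the methyltransferases and the Jumonji demethylases, were mostly at similar levels. Of 14 genes 1 was higher and 1 lower (7.14% each), beside 14.8% and 20.6% of all genes (median 0.05). Mat2a, for the S-adenosylmethionine synthetase of ES cells, was at 491 and 511 CPM, also named after its value was seen. Idh1, for the cytosolic isocitrate dehydrogenase, was at 35.1 and 116 CPM, 3.30-fold higher (interval 3.05 to 3.57). Nnmt, for an enzyme that consumes methyl groups, was at 4.31 and 0.648 CPM, 6.65-fold lower (interval 3.91 to 12.1).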
